A study of Mus musculus with 19 samples.

Results

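The 10 genes described here are read as marks of T cells and of their main states. Cd3d, Cd3e and Cd3g encode chains of the CD3 complex, Trbc2 and Trdc the constant parts of a T cell receptor beta chain and of the delta chain, Cd4 and Cd8a the co-receptors, Gzmb a protease of cytotoxic granules, and Foxp3 and Ctla4 the master factor and an inhibitory receptor of regulatory T cells. They were chosen by name as T cell genes, and 10 of 10 were found among the 24689 gene symbols of the table. They were followed across the tongue epithelia of 19 mice in 4 genotype groups, N, E, Y and EY.

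Poly-A RNA of whole tongue epithelia was sequenced in bulk, and the effect of the oncogenes E6 and E7 of a papillomavirus and of an active form of the transcriptional coactivator YAP was the question of the design. By genotype, the 5 E mice carry Krt14-CreERT/LSL-rtTA/tetON_E6-E7, the 3 Y mice carry tetON_YAP1S127A in place of tetON_E6-E7, and the 6 EY mice carry both effector transgenes. Of the 5 N mice, mice 1 to 3 carry Krt14-CreERT and LSL-rtTA alone, mouse 4 carries LSL-rtTA and no Cre, and mouse 5 carries Krt14-CreERT and both effectors but no rtTA. The study's methods add a tetON_H2B-GFP reporter to every group and describe littermates of 8 to 16 weeks in groups balanced for age and sex. Induction was by 3 doses of tamoxifen into the tongue with doxycycline in the food, and the epithelium was freed from the muscle with collagenase and dispase 15 days later. Because the Krt14 promoter drives Cre, the transgenes are aimed at basal keratinocytes, and T cells reach these samples as cells lying within or carried along with the epithelium.

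T cells recognise antigen through a receptor of paired alpha and beta, or gamma and delta, chains, and this receptor reaches the cell surface and signals together with the CD3 chains. CD4 T cells help other immune cells or, as regulatory T cells with Foxp3, restrain them, while CD8 T cells kill target cells with granzymes. In mouse skin and oral mucosa, T cells live among the keratinocytes, gamma-delta cells included, and chemokines made by keratinocytes draw T cells in. In bulk RNA of an epithelium, fewer T cells and less RNA per T cell cannot be told apart.

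The samples were epithelium by their markers. The summed level of 8 oral epithelial genes, Krt13 the most abundant in each group, was between 44143 and 138743 TPM, whereas 8 genes shared by all leukocytes summed to between 10.8 and 54.2 TPM. Reads could be recovered from the steps of the TPM values, 8269674 to 11007304 per mouse, and the 10 T cell genes together took 3721 reads in 19 mice. Of their 190 values, 11 were at 0, of which N mice had 5, E mice 4, Y mice 2 and EY mice 0. A value of 0 still allows up to 3 reads, which is 0.266 to 0.346 TPM for Cd3d in the N mice that were at 0, and this limit covers counting error alone. Before any group was compared, mice 1 of N and 4 of E lay at an end of some sums, although a check for outlying samples found 0. N mouse 1 had the highest leukocyte sum of all mice, at 54.2 TPM, and the highest sum of 12 macrophage genes, at 962 TPM. E mouse 4 had the lowest macrophage sum, at 49.6 TPM, a leukocyte sum of 11.3 TPM, and 4 of the 10 T cell genes at 0.

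All of these genes but Trdc, 9 of 10, had their highest group mean in EY epithelia, and the share of all genes that did was not counted. Trbc2, Cd3d and Gzmb rose against N, and these 3 of 10 genes compare with 12.6% of the 22745 genes tested that rose in the same comparison. The count was 2, without Gzmb, by limma voom and after scaling, and 1, Trbc2 alone, without N mouse 4, with only the 3 N mice that have Cre and rtTA, and with a pseudocount of 1 TPM. Each of the 10 had a log2 fold change above 0, Trdc by only 0.04, so 0 of 10 fell, against 5.71% of all genes. The share of all genes above 0 was not counted. Genes entered the test if 3 mice or more had 0.1 TPM or more, which held for 10 of 10, and a change was called at an adjusted p below 0.01 and a log2 fold change above 1 or below -1. The median log2 fold change of the 10 genes was 1.46, while that of all genes was 0.33. Scaling here means median-of-ratios scaling of the mice, which brought the median of all genes to 0.011 and that of the 10 genes to 1.19. Cd3d and Trbc2 were higher in every EY mouse than in any N mouse, a pattern that 20.9% of all genes shared.

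**Figure D1:**
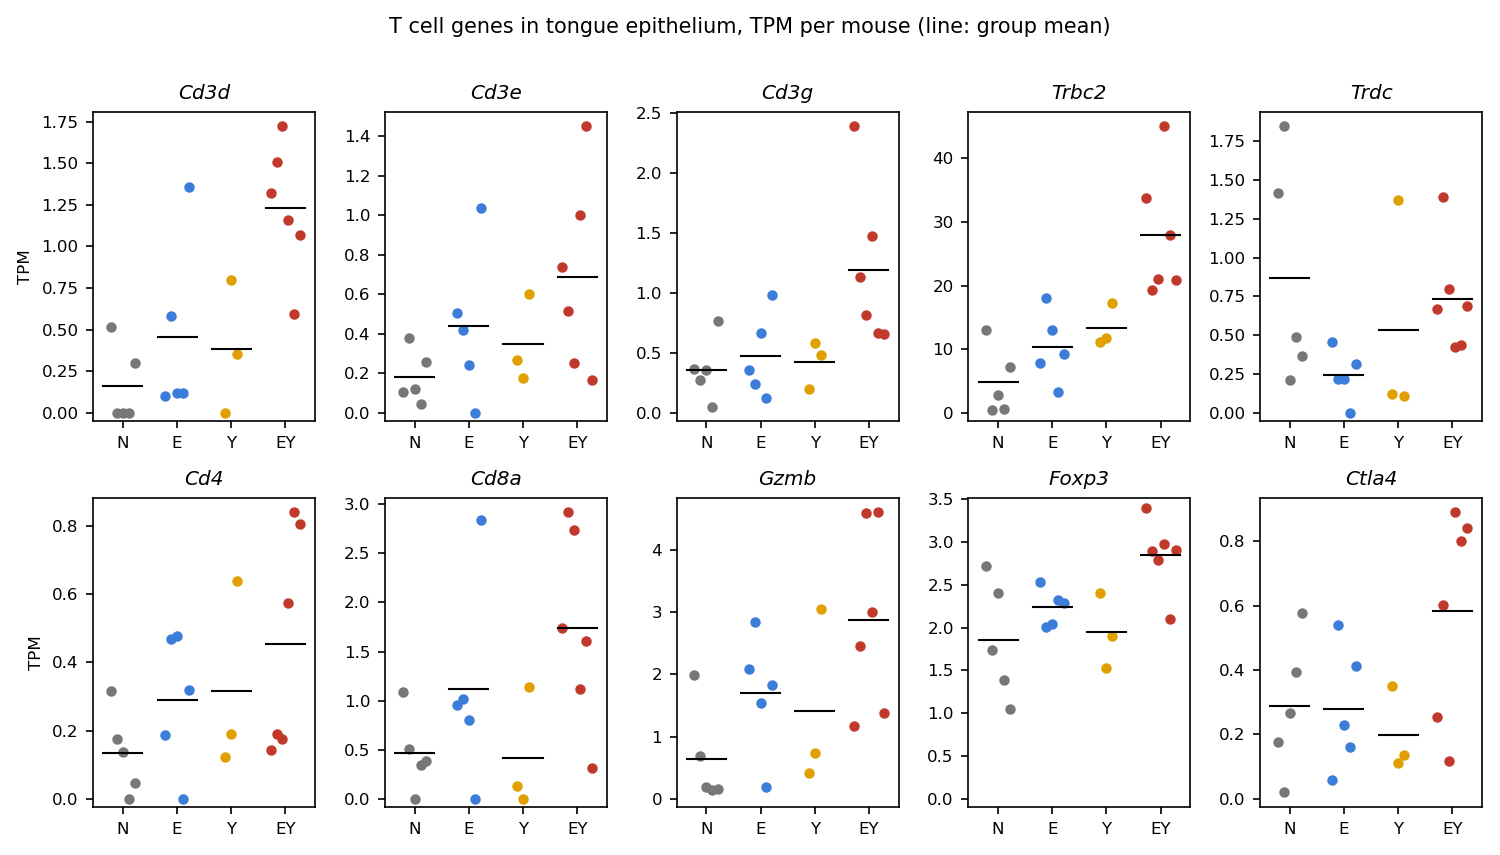
TPM of the 10 T cell genes (vertical axes, each from its own range) in each N, E, Y and EY mouse, with a point per mouse and a line at the group mean. Cd3d and Trbc2 of the 6 EY mice lie above all 5 N mice, at 0.593 to 1.72 and 19.3 to 45.1 TPM.

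The CD3 chains carry the signal of the receptor into the cell. Cd3d was at 0.513, 0, 0, 0 and 0.300 TPM in N mice 1 to 5 and at 0.593 at the lowest, 1.24 at the median and 1.72 at the highest in EY mice. The lowest EY mouse, mouse 5, was thus above the highest N mouse, mouse 1, by a narrow gap, and the difference rested on 5 to 15 reads in EY and 0 to 5 reads in N mice. Against N it was higher by a log2 fold change of 2.75 (adjusted p = 0.00284, standard error 0.67, higher in 6 of 6 EY mice) and 2.48 after scaling. Without N mouse 4 the adjusted p became 0.0101, and it was 0.0119 with only the 3 N mice that have Cre and rtTA, so Cd3d no longer passed in either. With a pseudocount of 1 TPM, which is close to the values themselves, the log2 fold change was 0.94 and Cd3d did not pass, and over the 12 other settings the adjusted p ranged from 0.00144 to 0.0119. E mice had 0.0986, 0.583, 0.119, 0.120 and 1.35 TPM and Y mice 0, 0.801 and 0.353 TPM. E mouse 5 and Y mouse 2 lay within the EY range and the other E and Y mice below it.

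Cd3g, another chain of the complex, was at 0.367, 0.270, 0.353, 0.0453 and 0.766 TPM in N and at 0.654, 0.976 and 2.40 TPM at the lowest, median and highest in EY mice. EY mouse 1 was the highest of all mice, and N mouse 5 lay within the EY range while the other 4 N mice lay below it. Its log2 fold change of 1.56 (standard error 0.48) missed the threshold with an adjusted p of 0.0145. Without N mouse 5 it passed, at 1.84 with an adjusted p of 0.00661. The E mice had 0.353, 0.239, 0.668, 0.123 and 0.982 TPM and the Y mice 0.199, 0.585 and 0.481 TPM. All 6 EY mice were above the 3 Y mice in Cd3g, but the test of that difference gave a log2 fold change of 1.25 and an adjusted p of 0.186. Cd3e, which pairs with the other chains, was the least separated of the 3, with 0.0452 to 0.377 TPM in N, 0.163 to 1.45 in EY, 0 to 1.04 in E and 0.175 to 0.600 in Y mice. Only EY mice 3 and 6 lay within the N range in Cd3e, and its log2 fold change of 1.36 had an adjusted p of 0.0678. An opposite-strand gene, Gm48719, shares 135 exon bases with Cd3e in the GRCm38 annotation and had 0 to 8 reads per mouse, and since the strand setting of the read counting is not given, reads of the pair cannot be told apart there.

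The promoters of Cd3d and Cd3g are shown because these genes are neighbours that point away from each other on chromosome 9, with starts 1355 bases apart, and that of Gzmb because it also rose in EY mice. The 250 bases before each start are from RefSeq for GRCm38.p6, 5′ to 3′ on the gene's strand, and capitals mark 6-base motifs of factor families known in T cells, searched on both strands.
Cd3d (chr9:44981536-44981785, plus strand): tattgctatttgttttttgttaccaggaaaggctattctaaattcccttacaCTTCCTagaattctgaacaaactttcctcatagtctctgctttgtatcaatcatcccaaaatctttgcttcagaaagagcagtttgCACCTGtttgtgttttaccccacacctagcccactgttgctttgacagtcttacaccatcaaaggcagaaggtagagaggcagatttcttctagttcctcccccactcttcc
Cd3g (chr9:44980432-44980681, minus strand): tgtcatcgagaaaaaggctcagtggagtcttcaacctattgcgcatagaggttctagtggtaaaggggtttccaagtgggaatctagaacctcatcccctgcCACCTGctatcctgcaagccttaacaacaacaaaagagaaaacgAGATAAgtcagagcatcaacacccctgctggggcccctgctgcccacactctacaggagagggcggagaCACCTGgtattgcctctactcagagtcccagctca
Gzmb (chr14:56262335-56262584, minus strand): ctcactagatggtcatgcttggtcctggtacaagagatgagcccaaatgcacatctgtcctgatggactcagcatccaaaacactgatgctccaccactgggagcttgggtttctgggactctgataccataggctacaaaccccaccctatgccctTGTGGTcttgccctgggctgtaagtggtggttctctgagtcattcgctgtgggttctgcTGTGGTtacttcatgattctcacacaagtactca
The Runx motif was taken as TGTGGT, which 14% of the 32851 promoters of this length hold on either strand. For ETS factors it was AGGAAG, held by 29.5%, and for E-box factors CACCTG, held by 17.2%. The GATA motif, read as AGATAA, was in 9.99% of them. Cd3d held an ETS motif on the reverse strand and an E-box, whose first bases lie 198 and 112 bases before the start. Cd3g held E-boxes at 148 and 35 and a GATA motif at 104 bases, and Gzmb held Runx motifs at 93 and 34 bases, with no overlap among them. Both divergent genes thus share the E-box letters, and Gzmb shares none of the 4 motifs with them. Promoters of 7 of the 10 genes were matched by symbol, and those of Cd4, Trdc and Trbc2 were not. These are matches of letters and do not show binding.

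Trbc2 had by far the highest level of the 10 genes per length and the largest change. In N mice 1 to 5 it was at 13.0, 0.361, 2.76, 0.607 and 7.18 TPM, and in EY mice at 19.3, 24.5 and 45.1 TPM at the lowest, median and highest. Relative to the mean, N mice varied more (4.78 ± 5.35 TPM, SD, n = 5) than EY mice (28 ± 10.02 TPM, SD, n = 6), and N mouse 1 came closest to the EY range without reaching it. Its log2 fold change of 3.45 (adjusted p = 0.000595, standard error 0.69, higher in 6 of 6 EY mice) was 3.08 after scaling and passed in each of the 12 other settings and with any single mouse left out, with an adjusted p of at most 0.00479. These levels correspond to 50 to 114 reads in EY and 1 to 37 reads in N mice. E mice, at 7.77, 18.0, 13.0, 3.30 and 9.28 TPM, and Y mice, at 11.1, 11.7 and 17.3 TPM, lay between N and EY. E mice overlapped with N mice 1 and 5 and Y mice with N mouse 1, and neither group with EY. Against N the log2 fold change was 1.88 in E (adjusted p = 0.206) and 2.43 in Y (adjusted p = 0.0570), and neither passed. EY exceeded E by 1.57 (adjusted p = 0.0901) and Y by 1.02 (adjusted p = 0.479), so a difference of EY from the single-transgene groups was not shown, although every EY mouse was above every E and Y mouse. With only the E and EY mice in the model, the difference from E passed with an adjusted p of 0.00908, the lowest of a range that ran to 0.192 over the settings. Trbc1, whose constant part is nearly identical to that of Trbc2, was at 0 to 2.00 TPM in N and 0 to 6.33 TPM in EY mice, and reads shared by such similar genes could be lost or misplaced in counting, which was not tested.

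Trdc, the constant part of the delta chain of gamma-delta T cells, did not follow the other genes. The N mice had 1.42, 1.85, 0.213, 0.491 and 0.369 TPM and the EY mice 0.427, 0.677 and 1.39 TPM at the lowest, median and highest. N mice 1 and 2 were the highest of their group, N mouse 2 was the highest of all 19 mice, and the EY mice lay inside the N range. Against N this gave a log2 fold change of 0.04 (adjusted p = 0.967, standard error 0.59), with a sign that turned under scaling (-0.28) and without N mouse 3 (-0.28), N mouse 4 (-0.05), N mouse 5 (-0.14), EY mouse 2 (-0.15) or EY mouse 3 (-0.0012). E mice were low, at 0.455, 0.215, 0.219, 0 and 0.313 TPM, and Y mice had 0.120, 1.37 and 0.109 TPM. E mouse 4 and Y mice 1 and 3 lay below the N range and the others within it. Against N the log2 fold change was -1.36 in E (adjusted p = 0.313) and -0.90 in Y (adjusted p = 0.447). The interaction, by which EY exceeds the sum of both single effects, was 2.30 for Trdc (unadjusted p = 0.0241, adjusted p = 0.280), the largest among the 10 genes and still short of the threshold. Trdc reads numbered 0 to 19 per mouse. The opposite-strand genes Gm43434 and Trdv5 share 96 and 207 exon bases with Trdc in the GRCm38 annotation. Gm43434 had 0 to 11 reads per mouse, and Trdv5 was not among the gene symbols.

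The other genes of gamma-delta and type 17 T cells had a median log2 fold change of 0.29 over 10 tested in EY against N, with Il17f and Ccr6 higher. Il17f, a cytokine of these cells, was listed at 0 in the 5 N and 3 Y mice, at 0.0496 TPM in E mouse 4 and 0 in the other E mice, and at 0.0508, 0.161 and 0.440 TPM at the lowest, median and highest in EY mice. Each EY mouse had some Il17f, and the adjusted p was 0.000343, but it was not called with a pseudocount of 1 TPM. No Il17f value was above 0.440 TPM, and the lowest in EY was close to that of E mouse 4. A value of 0 still allows up to 3 reads. Ccr6, the receptor for Ccl20, was at 0.0466 to 0.270 TPM in N and 0.222 to 1.12 TPM in EY mice (log2 fold change 1.33, adjusted p = 0.00622), and that call was lost in 8 of the other settings, scaling among them (1.08, adjusted p = 0.0231, in a range from 0.00579 to 0.0595), and without N mouse 2, 3, 4 or 5 or EY mouse 2, 5 or 6 (adjusted p at most 0.0212). Il17a, the sister cytokine of Il17f, was at 0 in 4 of 5 N and in 4 of 6 EY mice.

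Cd8a, the co-receptor of cytotoxic T cells, was at 1.09, 0.510, 0, 0.342 and 0.386 TPM in N mice and at 0.309, 1.67 and 2.92 TPM in EY mice at the lowest, median and highest. Of the EY mice, 5 were above every N mouse, and EY mouse 6 lay among the N mice. Cd8a had a log2 fold change of 1.82 with a standard error of 0.85, and its adjusted p of 0.0962 missed the threshold. E mice had 0.953, 1.01, 0.803, 0 and 2.84 TPM and Y mice 0.125, 0 and 1.14 TPM. E mouse 5 reached the highest EY mice, and 2 of the 3 Y mice lay below 0.309 TPM, the lowest EY value. EY exceeded Y by 2.35 in log2 (adjusted p = 0.156, standard error 0.99).

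Gzmb, the granzyme with which cytotoxic cells trigger cell death, was at 2.00, 0.685, 0.187, 0.144 and 0.162 TPM in N and at 1.17, 2.73 and 4.62 TPM at the lowest, median and highest in EY mice. N mouse 1 was within the EY range and the other 4 N mice lay below it, 3 of them with a single read. Gzmb rose by a log2 fold change of 2.40 (adjusted p = 0.00866, standard error 0.68, with 4 of 6 EY mice above every N mouse). This call was close to the threshold. It was lost in 6 of the 12 other settings, among them scaling (2.09, adjusted p = 0.0224) and the 3 N mice with Cre and rtTA (1.76, adjusted p = 0.10), the highest of a range from 0.00722. It was also lost without N mouse 2, 3, 4 or 5, E mouse 1, 3 or 5, Y mouse 2, or EY mouse 2, 3, 4 or 5, with an adjusted p of at most 0.0275. In E mice Gzmb was at 2.08, 2.84, 1.54, 0.195 and 1.83 TPM and in Y mice at 0.421, 0.742 and 3.05 TPM. The E mice other than mouse 4 were in the EY range, and so was Y mouse 3. Against N this came to a log2 fold change of 1.53 in E (adjusted p = 0.330) and 1.17 in Y (adjusted p = 0.387).

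Of 21 other CD8 and cytotoxic genes tested, 2 were higher in EY against N, namely Eomes and Itgae, beside 12.6% of all genes, with a median log2 fold change of 0.88, or 0.98 with the gene at 0 in every N mouse entered as its mean TPM in EY mice over its mean limit of 3 reads in N mice, a ratio without the pseudocount. At an unadjusted p below 0.05 there were 7 of the 21, beside 11043 of the 22745 genes tested. By limma voom on the recovered reads 3 were called, and after scaling 1 was called. Eomes, a factor of effector and memory CD8 T cells and NK cells, was at 0 in the 3 Y mice, in 4 of 5 N and in 4 of 5 E mice. In EY mice it was at 0.0831, 0.365 and 0.730 TPM at the lowest, median and highest, above each N mouse (log2 fold change 2.01, adjusted p = 0.000314). A pseudocount of 1 TPM brought the log2 fold change of Eomes to 0.45, under the limit. Against E it was higher in EY by 1.83 (adjusted p = 0.000896), a call lost with that pseudocount alone. Itgae, the integrin that tethers T cells to epithelial E-cadherin, was at 0.173 to 0.521 TPM in N and 0.409 to 1.34 TPM in EY mice. EY mouse 3 lay within the N range and the other EY mice above it. For Itgae the log2 fold change was 1.13 (adjusted p = 0.00393). The call was lost in 6 of the 12 other settings, among them scaling (0.82, adjusted p = 0.0314, in a range from 0.00286 to 0.0317). It was also lost without N mouse 4 (0.96) and without EY mouse 5 or 6 (adjusted p at most 0.0146). Cd8b1, the partner chain of Cd8a, was at 0 in 3 of 5 N mice and at 0.0873 to 0.454 TPM in EY mice and did not pass.

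Cd4, the co-receptor of helper and regulatory T cells, had the lowest mean level of the 10 genes over the 19 mice, though not within E or Y mice. It was at 0.315, 0.174, 0.136, 0 and 0.0471 TPM in N and at 0.142, 0.382 and 0.839 TPM at the lowest, median and highest in EY mice. EY mice 4, 5 and 6 were above every N mouse and mice 1, 2 and 3 lay within the N range. For Cd4 the log2 fold change was 1.18 (adjusted p = 0.0949, standard error 0.54). E mice had 0.186, 0.468, 0.476, 0 and 0.320 TPM and Y mice 0.123, 0.189 and 0.638 TPM, and both groups overlapped with N and with EY. The 8 other CD4 helper genes tested had a median log2 fold change of 0.52. Ccr7, a receptor that guides naive and central memory T cells to lymph nodes, was at 0 to 0.890 TPM in N and 0.566 to 2.28 TPM in EY mice (log2 fold change 2.17), at an adjusted p of 0.00999 that went over the threshold in 9 of the 12 other settings (0.00599 to 0.0874) and in 14 of 19 fits with a mouse left out, all but those without N mouse 1 or 2, E mouse 2 or 4, or EY mouse 3, at no more than 0.0351.

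Foxp3, which sets the regulatory T cell state, was the steadiest of the 10 genes. N mice had 2.72, 1.74, 2.40, 1.39 and 1.05 TPM and EY mice 2.10, 2.90 and 3.40 TPM at the lowest, median and highest. EY mouse 5 lay inside the N range and the other 5 EY mice above it, of which mouse 3 was closest to it at 2.79 TPM. The log2 fold change was 0.65 (adjusted p = 0.0183, standard error 0.21) and 0.29 after scaling, at which the adjusted p was 0.260, the highest of a range from 0.0144. E mice were at 2.54, 2.01, 2.05, 2.32 and 2.29 TPM and Y mice at 2.40, 1.53 and 1.90 TPM, all within the N range. Foxp3 was at 1.05 TPM or more in each of the 19 mice, including E mouse 4, in which 75 of the 94 reads of the 10 genes were from Foxp3. It was not matched by the CD3 genes, and N mouse 4 had 1.39 TPM of Foxp3 beside 0 of Cd3d and 0.0452 of Cd3e. In the GRCm38 annotation Foxp3 shares 590 exon bases with Ccdc22, 266 with Ppp1r3f and 373 with Gm36995 on the opposite strand, and 853 with Flicr on its own, and these neighbours had 0 to 4 (Ccdc22), 1 to 25 (Ppp1r3f) and 0 to 6 (Flicr) reads per mouse. How many Foxp3 reads come from such shared bases was not tested.

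Ctla4, the inhibitory receptor that competes for Cd80 and Cd86, was at 0.178, 0.0203, 0.266, 0.392 and 0.577 TPM in N and at 0.119, 0.700 and 0.891 TPM at the lowest, median and highest in EY mice. EY mice 2, 4, 5 and 6 were above every N mouse, and EY mice 1 and 3 were inside the N range. The log2 fold change was 0.84 (adjusted p = 0.20, standard error 0.51). E mice, from 0.0570 to 0.539 TPM, and Y mice, from 0.11 to 0.350 TPM, stayed within the N range.

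The regulatory T cell list apart from Foxp3 and Ctla4 had 5 of 10 genes higher in EY against N, with a median log2 fold change of 1.46. After scaling 4 of these were higher and Ikzf4, a relative of Ikzf2, was lower, at 0.140 to 0.725 TPM in N and 0.10 to 0.416 TPM in EY mice. Icos, a co-stimulatory receptor, was at 0.280, 0.0523, 0.0857, 0.0659 and 0.248 TPM in N and 0.367, 1.00 and 1.85 TPM at the lowest, median and highest in EY mice, without overlap (log2 fold change 2.20, adjusted p = 0.00039). Tnfrsf9, a receptor that appears on activated T cells, was at 0 to 0.217 TPM in N and 0.233 to 1.59 TPM in EY mice (2.28, adjusted p = 0.000146). Both passed in 19 of 19 fits with a mouse left out, but not with a pseudocount of 1 TPM (0.80 for Icos and 0.70 for Tnfrsf9). Tnfrsf4, another co-stimulatory receptor, was at 2.06, 1.90, 5.78, 1.95 and 0.601 TPM in N, 6.77, 15.6 and 6.60 in Y and 4.69, 12.1 and 18.8 at the lowest, median and highest in EY mice. Y mice were all above N, and EY mouse 3 alone among EY mice was below N mouse 3. Its log2 fold change was 2.46 in EY (adjusted p = 0.000147) and 2.13 in Y (adjusted p = 0.00876). The call in Y was lost in 6 of the 12 other settings (adjusted p 0.00704 to 0.0667) and in 16 of 19 fits with a mouse left out, that is in all but those without N mouse 3, EY mouse 3 or EY mouse 5, with an adjusted p of at most 0.0576. Il2ra, the high-affinity interleukin-2 receptor chain, was at 0.0220 to 0.271 TPM in N and 0.231 to 0.777 TPM in EY mice (1.85, adjusted p = 0.00156), and its call was lost with a pseudocount of 1 TPM (0.54) and with the 3 N mice with Cre and rtTA (1.55, adjusted p = 0.0234). Ikzf2, a factor of regulatory T cells that is also found in other cells, had a log2 fold change of 1.07. Its call was lost in 5 of the 12 other settings, among them scaling (0.72) and a pseudocount of 1 TPM (0.72). With the 3 N mice with Cre and rtTA its adjusted p was 0.0130. The log2 fold change was also under 1 without N mouse 1 (0.98), 2 (0.998) or 4 (0.96) or EY mouse 5 (0.95).

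**Figure D2:**
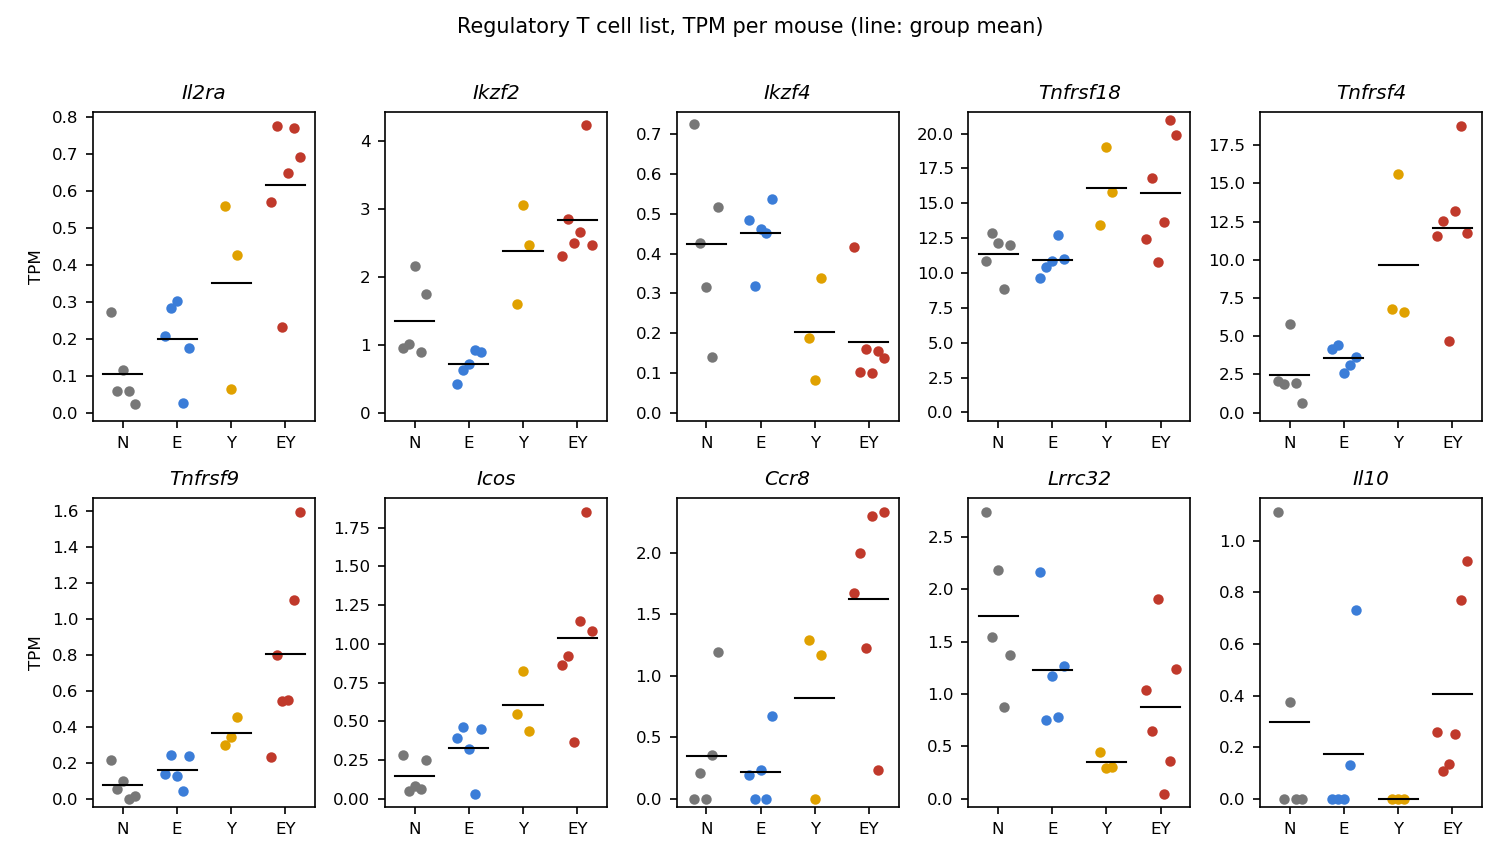
TPM of 10 regulatory T cell genes (vertical axes) in each N, E, Y and EY mouse, with a point per mouse and a line at the group mean. Icos, Ikzf2 and Tnfrsf9 of the 6 EY mice lie above the N mice without overlap, at 0.367 to 1.85, 2.30 to 4.24 and 0.233 to 1.59 TPM.

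Checkpoint receptors and ligands followed, with 4 of 9 tested higher in EY, beside 12.6% of all genes. The median log2 fold change of the 9 was 1.32, and after scaling 3 were higher, with a median of 1.00. Tigit, an inhibitory receptor of regulatory and exhausted T cells, was at 0.112, 0, 0, 0 and 0.0726 TPM in N and 0.232, 0.577 and 1.31 TPM at the lowest, median and highest in EY mice (log2 fold change 2.39, adjusted p = 6.7e-05). Pdcd1, which encodes PD-1, was at 0 to 0.120 TPM in N and 0.166 to 0.667 TPM in EY mice (1.87, adjusted p = 0.00117). Both were without overlap and passed with any mouse left out, but not with a pseudocount of 1 TPM (0.65 for Tigit and 0.44 for Pdcd1), and Pdcd1 not with the 3 N mice with Cre and rtTA (1.61, adjusted p = 0.0186). Cd80, a ligand of Ctla4, was at 0.181 to 0.618 TPM in N and 0.791 to 1.65 TPM in EY mice (1.32, adjusted p = 0.000851), and its call was lost with the 3 N mice (adjusted p = 0.0116) and with that pseudocount (0.60). Cd274, which encodes the PD-1 ligand PD-L1 and is also made by epithelial cells, was at 0.564 to 2.48 TPM in N and 2.71 to 4.81 TPM in EY mice (1.82, adjusted p = 0.00691). Its call was lost after scaling (adjusted p = 0.0277, in a range from 0.00165 to 0.0767) and without N mouse 2, 3, 4 or 5 or EY mouse 2, 3 or 5, with an adjusted p of at most 0.0221.

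Of 14 other genes of the T cell receptor and its signalling that were tested, 7 had an unadjusted p below 0.05 in EY against N. This compares with 11043 of the 22745 genes tested. The median log2 fold change of the 14 was 0.75, and 1 gene rose in EY, beside 12.6% of all genes. This gene was Lck, the kinase that starts receptor signalling. Lck was at 0.405, 0.0926, 0.177, 0.136 and 0.197 TPM in N, at 0.520, 0.691, 0.756, 0.476 and 1.26 in E, at 0.228, 0.176 and 0.310 in Y, and at 0.632, 0.757 and 1.43 at the lowest, median and highest in EY mice. All E and all EY mice were above all N and Y mice. The log2 fold change against N was 1.74 in EY (adjusted p = 9.51e-05) and 1.49 in E (adjusted p = 0.00797), and the call in EY was lost with a pseudocount of 1 TPM (0.64). In Y it was 0.22. EY was above Y by 1.52 at an adjusted p of 0.00946, but this call was lost in 11 of the 12 other settings, scaling and limma voom among them (adjusted p up to 0.0311), and in 16 of 19 fits with a mouse left out, all but those without N mouse 1 or 2 or E mouse 5 (adjusted p up to 0.0532), so the difference of EY from Y depends on the setting. In E the call was lost in 8 of the 12 other settings (adjusted p 0.00648 to 0.0689) and in 14 of 19 fits with a mouse left out, all but those without N mouse 1, E mouse 1 or 4, or EY mouse 5 or 6, with an adjusted p of at most 0.0274. Cd5 was the most abundant gene of this list, at 6.07 TPM or more in each mouse, far above the CD3 genes, and it was above 0 in mice that had 0 of Cd3d.

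Against N, neither single transgene changed any of the 10 T cell genes by limma at the thresholds above. In Y, 0 of 10 were higher (3.47% of all genes) and 0 lower (1.11% of all genes), and 0 of 10 were called by limma voom. At an unadjusted p below 0.05 there was 1, Trbc2, beside 6562 of the 22745 genes tested. The median log2 fold change of the 10 genes was 0.50 and that of all genes 0.13. In E, 0 of 10 were higher (1.16% of all genes) and 0 lower (0.0440% of all genes), and 0 were called by limma voom. At an unadjusted p below 0.05 there were 3, namely Trbc2, Gzmb and Trdc, beside 3358 of the 22745 genes tested. The median was 0.68 against 0.07 for all genes. In both comparisons 0 of 10 genes were without overlap and higher, where 15.5% of all genes were in Y and 3.93% in E. The 3 comparisons share the N mice. As the Y group has 3 mice, standard errors were wider there, and a p above the threshold does not show that levels were alike.

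**Figure D3:**
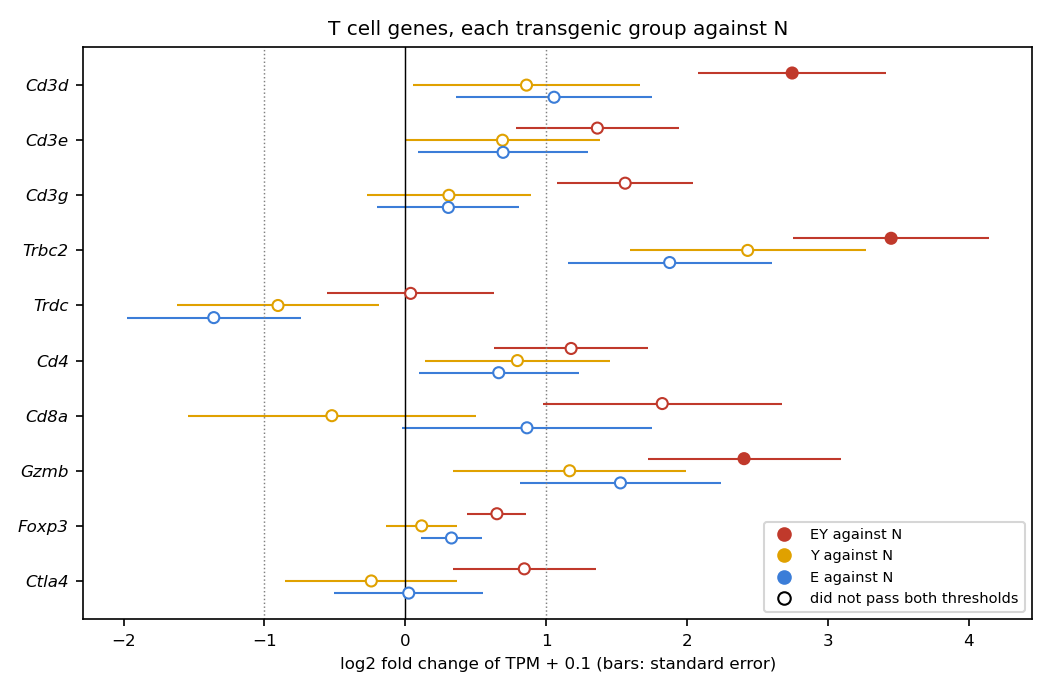
Log2 fold change of TPM + 0.1 against N (horizontal axis) of the 10 T cell genes in EY, Y and E epithelia, with bars for the standard error and filled points for changes past both thresholds. Cd3d, Trbc2 and Gzmb pass in EY at 2.75, 3.45 and 2.40, and no gene passes in Y or E.

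The direct comparisons asked whether adding a transgene to the other changed these genes. EY against Y gave 0 of 10 higher (1.07% of all genes), 0 lower (0.928%) and 0 by limma voom, with a median log2 fold change of 1.05. At an unadjusted p below 0.05 there were 4, beside 5425 of the 22745 genes tested. Cd3g and Trbc2 were without overlap and higher in EY, as were 11.1% of all genes. EY against E gave 0 of 10 higher (7.82%), 0 lower (4.99%) and 0 by limma voom, with a median of 0.92. At an unadjusted p below 0.05 there were 4, which were Cd3d, Cd3g, Trdc and Trbc2, beside 9909 of the 22745 genes tested. Trbc2 alone was without overlap and higher there, beside 17.6% of all genes. For Cd3d the log2 difference was 1.69 from E (adjusted p = 0.0586) and 1.89 from Y (adjusted p = 0.148). No interaction passed among the 10 genes, with 0 higher (0.00879% of all genes), 0 lower (0.167%) and 0 by limma voom. At an unadjusted p below 0.05 there was 1, beside 3072 of the 22745 genes tested. So the changes of Cd3d, Trbc2 and Gzmb in EY were not shown to differ from those in E or Y.

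Order by mean TPM over the 19 mice put Trbc2 first at 14.9, then Foxp3 (2.28), Gzmb (1.74), Cd8a (1.03), Cd3g (0.662), Cd3d (0.611), Trdc (0.608), Cd3e (0.434), Ctla4 (0.365) and Cd4 (0.305). Trbc2 exceeded Foxp3 by more than its own SD of 11.6 TPM, whereas each later step was smaller than the SD of the higher gene. These SDs pool the 4 groups, and differences between genes within a mouse were not tested, so the order is a description. TPM divides by the length of the gene model, and for the short Trbc2 model a single read was 0.361 TPM in N mouse 2. In N mice the second place went to Foxp3 (1.86) and the third to Trdc (0.868), and in EY mice Trdc, at 0.735 TPM, was below Gzmb, Foxp3, Cd8a, Cd3d and Cd3g. Within groups the spread was wide, with an SD of 0.235 around a mean of 0.163 TPM for Cd3d in N and of 0.393 around 1.23 TPM in EY mice.

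No single EY mouse carried the pattern. Reads of the 10 genes summed to 214, 113, 116, 99 and 126 in N mice, to 180, 195, 159, 94 and 220 in E, to 126, 131 and 183 in Y, and to between 233 and 357 in EY mice. Each EY mouse was above each other mouse, although these are reads without regard to length. Their TPM summed to 21.7, 5.98, 6.43, 3.46 and 11.1 in N and to 15, 26.3, 19.4, 6.22 and 20.7 in E. In Y the sums were 15.1, 17.3 and 25.7, and in EY 29.6, 38.1 and 57.7 at the lowest, median and highest. Trbc2 made up most of the sum in each EY mouse, while Trdc was the most abundant in N mouse 2 and Foxp3 in N mouse 4. EY mouse 5 was the highest of all mice in 3 genes (Cd3e, Cd4 and Gzmb), mouse 1 in Cd3g and Foxp3, mouse 4 in Trbc2 and Ctla4, mouse 2 in Cd8a and mouse 3 in Cd3d. The lowest values fell on N mouse 4 in 4 genes and on E mouse 4 in 4 genes.

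Ratios between genes set one T cell gene against another in 5 of 6 pairs, while Cd3e over Ptprc sets a T cell gene against all leukocytes. For each mouse the log2 ratio of TPM + 0.1 was formed for 6 pairs of genes and each transgenic group was compared with N by a two-sided exact permutation test, 18 tests in all. None of the 18 had an adjusted p below 0.05. Trdc over Trbc2 came closest, with a mean log2 ratio of -1.69 ± 2.53 (SD, n = 5) in N, -4.92 ± 0.781 (n = 5) in E, -5.02 ± 1.78 (n = 3) in Y and -5.10 ± 0.964 (n = 6) in EY mice. In this ratio 5 of 6 EY, 4 of 5 E and 2 of 3 Y mice were below every N mouse. The exact permutation p was 0.00866 in EY, 0.0159 in E and 0.143 in Y, and the adjusted p 0.143, 0.143 and 0.536. The smallest p these group sizes allow is 0.00433, 0.00794 and 0.0357. Foxp3 over Cd3e was 2.86 ± 0.964 in N and 2.15 ± 1.08 in EY mice (exact permutation p = 0.277, adjusted p = 0.554). For Cd4 over Cd8a the values were -1.06 ± 1.33 and -1.71 ± 1.82 (exact permutation p = 0.494), and for Cd3e over Ptprc, the leukocyte gene that encodes CD45, -1.51 ± 1.06 and -0.88 ± 0.833 (exact permutation p = 0.320). Gzmb over Cd8a and Ctla4 over Foxp3 differed by 0.58 and 0.19 between EY and N (exact permutation p = 0.355 and 0.766), and the sign of the latter turned without N mouse 1 (-0.02), N mouse 2 (-0.17) or EY mouse 5 (-0.0042).

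Ligands that attract or sustain T cells had the highest median log2 fold change of the lists in EY against N, 2.39. Of 12 tested, 6 were higher in EY (12.6% of all genes), 5 after scaling and 4 by limma voom. In Y 3 were higher (median 1.58), beside 3.47% of all genes. In E limma called 0 of 12 higher (1.16% of all genes, median 0.86), and limma voom called 0. An unadjusted p below 0.05 was found for 5 of the 12, beside 3358 of the 22745 genes tested. Cxcl16, the ligand of Cxcr6, a chemokine receptor of T cells, was at 24.4, 16.3, 10.7, 8.52 and 12.2 TPM in N, 18.5, 30.9, 21.4, 15.6 and 32.0 in E, 89.9, 117 and 125 in Y, and 145, 168 and 187 at the lowest, median and highest in EY mice. Y and EY mice were above all N and E mice, and EY above Y, though the EY and Y groups differed by 0.61 at an adjusted p of 0.172. Its log2 fold change was 3.63 in EY (adjusted p = 2.87e-09), 3.02 in Y (adjusted p = 3.18e-06) and 0.75 in E. Ccl20, which draws Ccr6-bearing T cells, was at 0 to 1.71 TPM in N, 0.270 to 1.04 in E, 12.0, 10.1 and 40.8 in Y and 5.76 to 13.1 in EY mice. Ccl17, a ligand of Ccr4 on skin-homing and regulatory T cells, was at 0 to 0.404 TPM in N, 0 to 4.50 in E, 1.82, 18.9 and 9.08 in Y and 2.91 to 29.5 in EY mice. Both rose in EY and Y, by 4.61 and 5.64 for Ccl20 and by 5.61 and 5.22 for Ccl17, and the call of Ccl17 in Y was lost without Y mouse 2 or 3 (adjusted p at most 0.0236) and with the 3 N mice (0.0131). With only the groups compared, both calls in Y were lost, at 0.0140 for Ccl20 and 0.0112 for Ccl17. The Cxcr3 ligands Cxcl9, Cxcl10 and Cxcl11, which interferon induces, rose in EY by 3.73, 4.59 and 5.44. N mouse 1 was high in Cxcl9 (17.5 TPM, other N mice 0.435 to 0.665) and Cxcl10 (37.0 TPM, other N mice at most 3.12) and lay within the EY ranges of 4.67 to 51.2 and 31.4 to 195 TPM. The Cxcl9 call (adjusted p = 0.00674) was lost in 6 of the 12 other settings, scaling (0.0145) and limma voom (0.0194) among them (at most 0.0673), and without N mouse 2, 3, 4 or 5 or EY mouse 2, 3 or 6 (at most 0.020). For Cxcl10 (0.00378) it was lost in 3 settings, among them limma voom (0.0190) and the 3 N mice with Cre and rtTA (0.0355), and without N mouse 3 or 5 (at most 0.0134). In Y, 3 of 12 ligands and 0 of 10 T cell genes were higher, beside 3.47% of all genes. A difference between the lists was not tested.

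**Figure D4:**
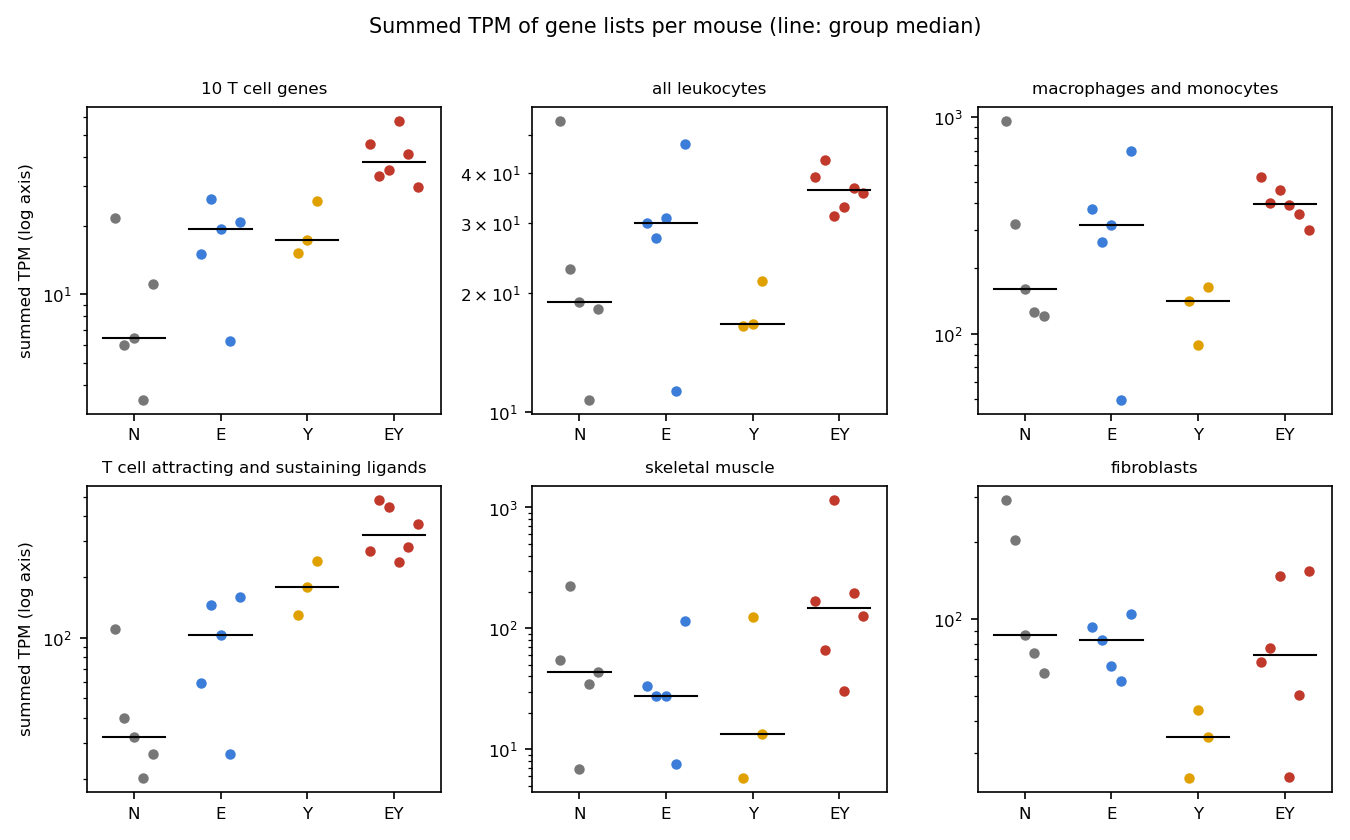
Summed TPM per mouse (vertical log axes) of the 10 T cell genes, of all-leukocyte, macrophage, ligand, muscle and fibroblast lists in N, E, Y and EY mice, with a point per mouse and a line at the group median. T cell gene sums of EY mice, at 29.6 to 57.7 TPM, lie above all N mice, whereas N mouse 1 has the highest leukocyte sum, at 54.2 TPM.

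Markers of other cells moved in part with the T cell genes, and their part in these results was not tested. For the counts below, 11043 of the 22745 genes tested had an unadjusted p below 0.05 in EY against N. Of 8 genes shared by all leukocytes, 0 passed in EY against N (median log2 fold change 0.85, 4 at an unadjusted p below 0.05, 0 by limma voom). Their sums, Cd52 the most abundant in N, were 54.2, 22.9, 18.9, 10.8 and 18.2 TPM in N, 29.9, 27.4, 30.8, 11.3 and 47.2 in E, 16.4, 16.7 and 21.4 in Y, and 31.3, 36.2 and 43.1 at the lowest, median and highest in EY mice. N mouse 1 was above every EY mouse and the other 4 N mice below every EY mouse. Of 12 macrophage and monocyte genes 0 passed (median 1.42, 5 at an unadjusted p below 0.05, 0 by limma voom), with sums of 120 to 962 TPM in N, 302 to 527 in EY, 49.6 to 696 in E and 88.5 to 164 in Y mice and Lyz2 the most abundant in N and EY. Of 3 NK cell genes tested 0 passed, none had an unadjusted p below 0.05, and limma voom called 0, with sums of 0 to 1.29 TPM in N and 0 to 1.04 TPM in EY mice. Ncr1, which defines NK cells, was at 0 in 3 of 5 N, 2 of 5 E, 3 of 3 Y and 3 of 6 EY mice. B and plasma cell genes, Igha the most abundant, summed to 0.927 to 11.4 TPM in N and 1.19 to 7.56 TPM in EY mice. Of 9 dendritic and Langerhans cell genes, the Langerhans marker Cd207 alone fell, by 1.86 (adjusted p = 0.00314), beside 5.71% of all genes. Its adjusted p was 0.0111 without N mouse 1 and 0.0198 with only the groups compared. Neutrophil genes had 3 of 7 higher (Cd177, Ly6g and Mmp8), beside 12.6% of all genes. Their median was 2.09, or 2.07 with Ly6g, at 0 in every N mouse, entered by its limit of 3 reads. Sums were 1.48 to 13.2 TPM in N and 2.04, 51.8 and 128 TPM at the lowest, median and highest in EY mice, Retnlg the most abundant there. The Cd177 call was lost in 4 other settings (adjusted p at most 0.0361) and without N mouse 2, 3, 4 or 5 or EY mouse 1, 2, 3 or 4 (at most 0.0165). For mast cell (4) and endothelial genes (3), limma called 0, limma voom called 0, and 0 had an unadjusted p below 0.05.

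Genes of muscle and connective tissue were present as well. The 6 skeletal muscle genes, Acta1 the most abundant, summed to 6.86 to 222 TPM in N, 30.4 to 1163 in EY, 7.59 to 114 in E and 5.73 to 123 in Y mice, with the highest sum in EY mouse 3. None of the 6 passed in EY (median 1.79, 0 by limma voom). At an unadjusted p below 0.05 there were 0 of the 6, beside 11043 of the 22745 genes tested. Fibroblast genes summed to 61.5 to 293 TPM in N and 24.2 to 153 in EY mice. Of the 6, Dcn alone was lower (5.71% of all genes), while 5 had a log2 fold change above 0. Their median was 0.39, and 0.018 after scaling. EY mouse 3, with the most muscle RNA, had the highest Cd3d of all mice but the second lowest Cd3e of the EY mice, and without it Cd3d and Trbc2 still passed and Gzmb did not (adjusted p = 0.0202). In EY against N, Krt14, Cdh1 and Epcam of the 8 oral epithelial genes rose (12.6% of all genes) and Krt13 and Krt4 fell (5.71%). Cdh1 was under the fold limit after scaling (0.78).

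Genes most like the T cell genes were sought among 15593 tested genes with a mean of at least 1 TPM, by Pearson r over the 19 mice to the mean log2(TPM + 0.1) of Cd3d, Cd3e and Cd3g. The 10 highest were Ndufs4 (r = 0.874), Gm13207 (0.852), Jcad (0.851), Srgn (0.849), Mmp13 (0.846), St3gal1 (0.845), Gemin2 (0.844), Lgals1 (0.844), Psmb10 (0.841) and Ifi209 (0.841). Srgn encodes the proteoglycan of leukocyte granules, Psmb10 a subunit of the immunoproteasome, Lgals1 a galectin and Mmp13 a collagenase. All 10 had their highest group mean in EY mice, as the CD3 genes did. Choosing genes by their r to the CD3 genes favours this shared peak, so the peak is no separate evidence of likeness. The points share 4 groups and 19 libraries, so r here is a description. Trbc2 had an r of 0.777 and rank 103, Gzmb 0.716 and rank 542, Cd8a 0.700 and rank 741, and Foxp3 0.427 and rank 5533. The other 6 genes had a mean below 1 TPM and were not ranked. Of the ranked T cell genes, Foxp3 thus followed the CD3 genes least.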

How the data were processed

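Bulk RNAseq of tongue epithelium from 19 mice was used, 5 N, 5 E, 3 Y and 6 EY. Values are the deposited TPM of 24689 gene symbols. The submitters' notes name STAR 2.7.9, SAMtools 1.7, HTSeq 0.13.5 and GRCm39 for alignment and counting, and do not give the conversion to TPM, the annotation release or the strand setting of the counting. The smallest step between the TPM of a mouse gave whole reads for 24680 genes (within 0.01 of a whole number), with a depth of 8798700 to 10654405 for N, 8285602 to 9482472 for E, 8269674 to 9249340 for Y and 8841013 to 11007304 reads for EY mice. One read per length is therefore the smallest step of a value, and a value of 0 was given a limit of 3 reads.

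Mice were grouped by genotype, N mice 4 and 5 with the other controls. The 22745 genes that reached 0.1 TPM in 3 mice or more were tested with limma 3.58.1 (lmFit, then eBayes with trend; R 4.3.3) on log2(TPM + 0.1), with a mean for each group fitted to all 19 mice, and p was adjusted by Benjamini and Hochberg over all genes tested in a comparison. Comparisons were EY, Y and E against N, EY against Y and E, and the interaction. Ratios were tested by exact permutation of the mice, adjusted over 18 tests. Scripts used Python 3.11.15 with numpy 2.4.6, pandas 2.3.3 and matplotlib 3.10.9, and the fits and the permutation test were tested on simulated data.

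The 10 T cell genes and the lists of other genes were chosen with earlier results of the study known. Named genes are the 10, any gene of a list in the text on that list, the genes annotated over a T cell gene, and the 10 with the highest r to the CD3 genes. Alternatives tried were pseudocounts of 1 and 0.01 TPM, a filter at 1 TPM and none, quantile normalization, median-of-ratios scaling, the 3 N mice with Cre and rtTA alone, only the groups compared, mouse number as a block, robust eBayes, limma voom on the recovered reads, an adjusted p of 0.05, and leaving out each of the 19 mice in turn.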

Additional observations from a re-analysis of the deposited data

How the results depend on the processing

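Across the 12 other settings, 565 of 590 log2 fold changes of the 10 T cell genes kept their direction and their side of the thresholds, 9 became weaker, 2 stronger and 14 turned sign, and with each mouse left out in turn 921 of 950 were kept. The filter at 1 TPM tested 8 of the 10 genes, so Cd4 and Ctla4 have no value there. For changes below the cause was not tested. In EY against N, 3 T cell genes passed, but 1 (Trbc2) with a pseudocount of 1 TPM and with the 3 N mice with Cre and rtTA, and 1 to 3 with a mouse left out. In EY against E, 1 (Trbc2) passed with only the groups compared.

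With mouse number as a block, 1 T cell gene (Trbc2) passed in EY against N. Deviations of same-numbered mice from their group means had r from -0.0426 to 0.0764, and with none over 0.1 the number was not used as a pairing, although the same-numbered mouse was the best match in 17 of 48 cases, where 10.4 would be by chance. Under the block Foxp3 was -0.021 and Ctla4 0.14 in Y against N.

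Small changes turned sign. Trdc in EY became -0.047 with a pseudocount of 1 TPM, -0.28 with scaling, -0.22 with quantile normalization, -0.32 with the 3 N mice and -0.090 with limma voom, and ran from -0.28 to 0.38 with a mouse left out. With the 3 N mice Foxp3 became -0.22 in Y and -0.0084 in E, Ctla4 0.29 in Y, the ratio of Gzmb to Cd8a -0.13 in EY and -0.047 in E, and the ratio of Ctla4 to Foxp3 0.51 in Y and 0.56 in E. With scaling Foxp3 was -0.071 in Y and Ctla4 -0.079 in E, which was -0.041 with quantile normalization and -0.0051 with a pseudocount of 1 TPM. That pseudocount gave -0.17 for Ctla4 to Foxp3 in EY, and 0.01 TPM gave 0.015 for Cd4 to Cd8a in E.

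With a mouse left out, Cd3g ran from -0.053 to 0.67 in Y and -0.057 to 0.59 in E, Cd8a from -1.54 to 0.28 in Y, Foxp3 from -0.056 to 0.27 in Y, and Ctla4 from -0.61 to 0.01 in Y and -0.34 to 0.30 in E. Ratios ran from -0.52 to 0.37 for Cd4 to Cd8a in E, and for Ctla4 to Foxp3 from -0.17 to 0.62 in EY, -0.72 to 0.071 in Y and -0.67 to 0.12 in E.

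Depth limits these genes, since a read is a large step where a gene has 0 to 41 reads in a mouse, as 8 of the 10 do.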

Other observations

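Reads of the 10 T cell genes without Trbc2 and Foxp3 summed to 74, 48, 28, 36 and 64 in N mice 1 to 5, to 57, 83, 60, 11 and 117 in E mice 1 to 5, to 29, 49 and 77 in Y mice 1 to 3, and to 105, 146, 95, 143, 147 and 116 in EY mice 1 to 6. E mouse 4 had the fewest, and E mouse 5 alone outside EY was above an EY mouse, mice 1, 3 and 6.

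Trac, the constant part of the alpha chain, was at 1.39, 2.07, 0, 0.133 and 1.96 TPM in N mice and at 1.11, 2.56 and 3.49 TPM at the lowest, median and highest in EY mice. N mouse 3 had 0 of Trac beside 2.76 TPM of Trbc2.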
